A study of Homo sapiens with 4 samples.

Results

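The 38 genes described here are members of the HOX clusters, chosen by name from the HOXA, HOXB, HOXC and HOXD clusters: 10 HOXA, 10 HOXB, 9 HOXC and 9 HOXD genes out of 20163 protein-coding genes. The list does not hold every gene of the clusters, and the cluster ends used here are those of the listed genes. FOXC1, a forkhead transcription factor, was mapped by chromatin immunoprecipitation with sequencing (ChIP-seq) in J82, an established human bladder cancer cell line, with the antibody D8A6. The study made 2 biological replicates of the FOXC1 ChIP, each with an input library made without antibody, and all cells were grown in the same medium, so the series holds no second condition. A single cell line grown in bulk was used, and a ChIP without FOXC1 was not among the libraries analysed here. Each replicate gave its own peak list on hg19, with 22405 peaks in replicate 1 and 41789 in replicate 2 on chromosomes 1 to 22, X and Y.

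HOX genes encode homeodomain transcription factors that give cells their position along the body axis. They lie in 4 clusters, and the order of the genes along the chromosome follows the order in which they are used along the axis, from the anterior genes with low paralog numbers to the posterior genes with high numbers. Polycomb complexes keep the clusters silent where they are not used, Trithorax-type complexes and retinoic acid receptors act in their activation, and PBX and MEIS proteins bind DNA together with the HOX proteins. The question addressed here was where along these clusters FOXC1 peaks were found, in which replicates and how strongly. Expression of the HOX genes was not analysed here.

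A peak was counted for a gene when its summit, the position of the highest pileup, lay in the gene body or within 5 kb of it. Of the 38 genes, 8 had a summit in replicate 1, 22 in replicate 2, and 8 a summit of a region shared by both lists, defined as overlapping peaks of both replicates. All 8 genes with a replicate 1 summit also had the shared one. The shared regions numbered only 4 in all, because neighbouring genes lie close together and a summit can fall in the windows of several genes. The genes are therefore not independent observations, and with 1 list per replicate and no second condition no test was possible.

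The DNA at some of the sites that held a forkhead match is given first. It is shown as 101 bp around the replicate 2 summit on the plus strand of GRCh37, the assembly of hg19. The HOXA10 sequence comes from a region shared by both replicates. The next 2 come from strong HOXA peaks found in replicate 2 alone. The last is a shorter stretch of 30 bp from a weaker peak of replicate 2 alone, with a fold enrichment of 3.25. Its summit lay 239 bp from the HOXC4 start site and within a HOXC6 exon. Capitals mark a match to the forkhead consensus, searched as GTAAACA and GTAAATA and as ATAAACA and ATAAATA on both strands, so that a match on the minus strand reads TGTTTAC or TATTTAT here.
HOXA10 start site, chr7:27212480-27212580: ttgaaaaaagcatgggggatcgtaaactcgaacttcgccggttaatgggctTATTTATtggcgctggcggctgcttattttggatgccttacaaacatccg
HOXA-AS2 start site, chr7:27154919-27155019: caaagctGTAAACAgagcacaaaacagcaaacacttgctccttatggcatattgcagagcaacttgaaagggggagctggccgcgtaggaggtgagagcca
downstream of HOXA5, chr7:27177773-27177873: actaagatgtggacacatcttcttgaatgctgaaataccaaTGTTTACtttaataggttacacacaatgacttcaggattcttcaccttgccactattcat
HOXC4 start site, chr12:54410465-54410494: tgagagaattggGTAAACAtggcgaccgcg
Each of these windows held 1 match. Its centre lay 4 bp from the summit at HOXA10 and at HOXC4. The distance was 6 bp at the site downstream of HOXA5 and 40 bp at HOXA-AS2. Over the clusters with flanks, 13 of 30 summits had a match within 50 bp. The strongest site, at HOXB6, had none within 500 bp of either summit and is not shown. The replicate 1 summit at HOXA10 had its nearest match 133 bp away. The strongest peak of replicate 2 alone, with a fold enrichment of 5.93, had none within 50 bp.

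**Figure D1:**
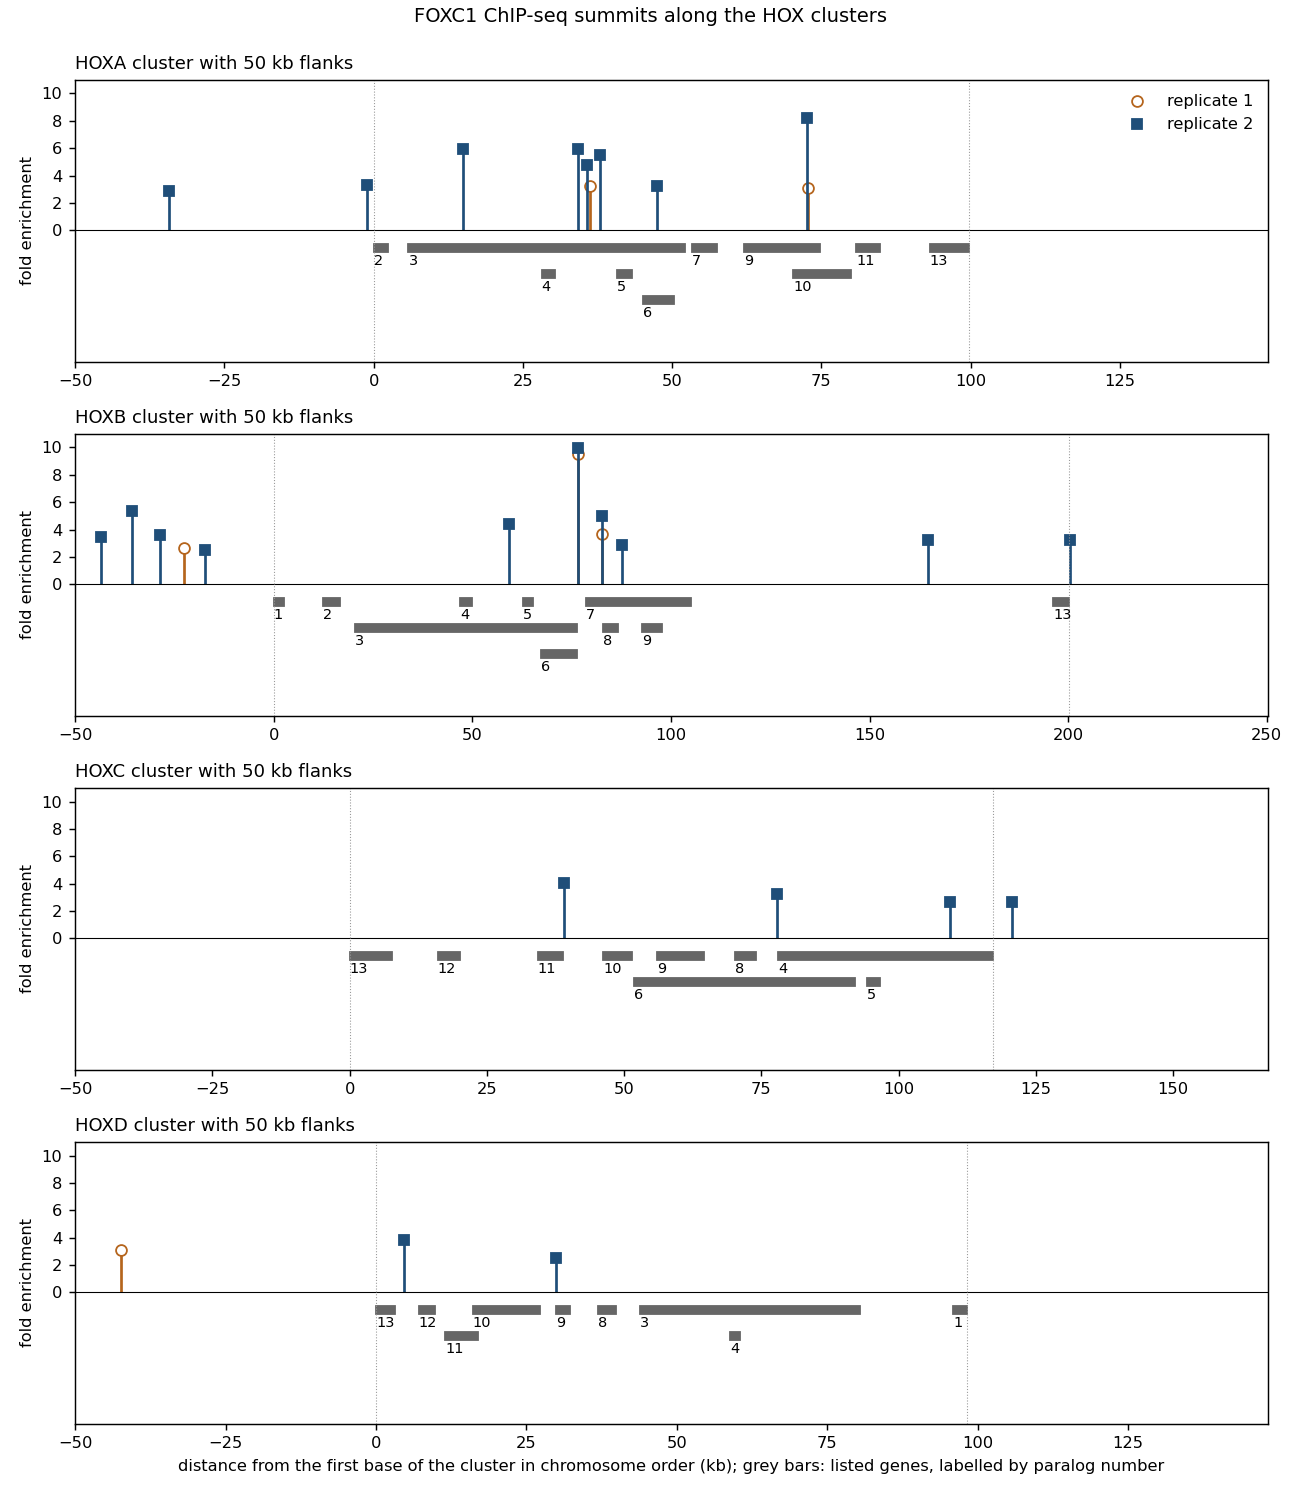
FOXC1 summits along the 4 HOX clusters with 50 kb flanks. The x axis gives the distance from the first base of the cluster in kb, the height gives the fold enrichment of the peak, circles stand for replicate 1 and squares for replicate 2, grey bars are the listed genes with their paralog number, and dotted lines mark the cluster ends. Peaks of both replicates met at 4 places, 2 in HOXA and 2 in HOXB, and the highest stood at the HOXB6 start site with 9.49 and 9.96.

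The strongest FOXC1 site of the clusters lay at the 5′ end of HOXB6, in HOXB (chr17:46605888-46806112). At the shared region chr17:46682194-46682763, the fold enrichment reached 9.49 in replicate 1 and 9.96 in replicate 2 (mean 9.72 ± 0.331, SD, n = 2). Fold enrichment here is how many times the ChIP pileup at a summit exceeds its local background. The summits lay 8 bp apart, in an intron of the long non-coding gene HOXB-AS3, 127 and 119 bp from the start site of HOXB6 and 207 and 199 bp from a start site of HOXB3. Reads over the summit, recovered from the peak values, numbered 48 in replicate 1 (95% Poisson interval 35.4 to 63.6) and 87 in replicate 2 (69.7 to 107.3). These intervals cover counting error only. The intervals of the read numbers did not overlap while the fold enrichments were nearly equal, and the reads were not adjusted for library depth. The local background was 4.16 reads in replicate 1 and 7.74 in replicate 2. In rank by −log10 p, this peak stood at 7.2% of the replicate 1 list and 6.8% of the replicate 2 list, counted from the strongest. It lay in the windows of HOXB3, HOXB6 and HOXB7, so 1 site accounts for 3 of the 8 genes. HOXB6 is a gene of the central part of the cluster, and HOXB3 is an anterior gene with long transcripts that start next to it.

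A second HOXB region, chr17:46688427-46688867, lay within the annotated body of HOXB7, and its edge reached the 3′ end of HOXB8. Its fold enrichment was 3.68 in replicate 1 and 4.96 in replicate 2 (mean 4.32 ± 0.909, SD, n = 2), with 18 (10.7 to 28.4) and 25 (16.2 to 36.9) reads. The intervals of the read numbers overlapped, and the summits lay 5 bp apart. Both summits were in an intron of HOXB7, 269 and 264 bp from the nearest HOXB7 start site, and outside the body of HOXB8. The sequence ATAAATA was centred 5 bp from the replicate 1 summit and on the replicate 2 summit itself.

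In HOXA (chr7:27139973-27239710), the shared region with the higher mean lay at HOXA10, a posterior gene of the cluster. In the region chr7:27212292-27212875, replicate 1 reached a fold enrichment of 3.10 and replicate 2 one of 8.20 (mean 5.65 ± 3.61, SD, n = 2). Reads over the summit numbered 15 (8.4 to 24.7) and 42 (30.3 to 56.8), and these intervals did not overlap. The log2 ratio of replicate 2 to replicate 1 was 1.4, compared with a median of 0.75 and an SD of 0.52 over all 13238 shared regions, so that the gap between the replicates was wider here than at the typical region by more than that SD. The summits lay 137 bp apart, 85 and 22 bp from a HOXA10 start site. The replicate 1 summit was in introns of HOXA10 and HOXA9, and the replicate 2 summit in an exon of HOXA10. The replicate 2 summit had ATAAATA centred 4 bp away, and from the replicate 1 summit the nearest forkhead match was 133 bp away. The 101 bp around the summit had a GC content of 77.2% for replicate 1 and 46.5% for replicate 2.

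The other shared HOXA region, chr7:27175522-27176505, lay between HOXA4 and HOXA5 in an intron of HOXA3, whose annotated transcripts span both genes. Its fold enrichment was 3.27 in replicate 1 and 4.77 in replicate 2 (mean 4.02 ± 1.07, SD, n = 2), with 16 (9.1 to 26) and 24 (15.4 to 35.7) reads. The summits lay 409 bp apart, so the overlapping peaks did not mark the same position. In replicate 1 this region and that at HOXA10 were nearly equal, and the order of their means came from replicate 2. No forkhead match was found within 500 bp of the replicate 1 summit, and the nearest to the replicate 2 summit was 289 bp away. Of all shared regions, 88.1% had summits within 100 bp of each other, whereas both HOXA regions did not and both HOXB regions did.

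**Figure D2:**
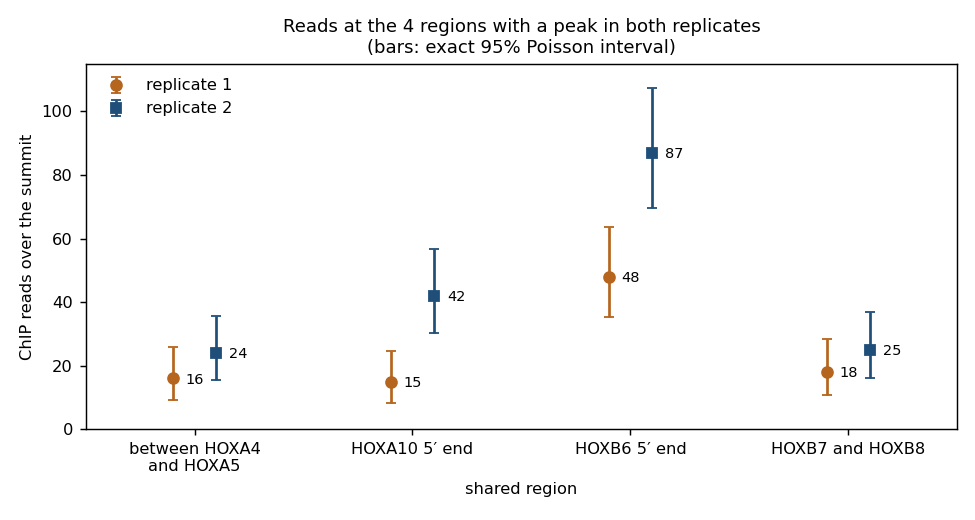
Reads over the summit (y axis) at the 4 shared regions (x axis) in replicate 1 (circles) and replicate 2 (squares), with exact 95% Poisson intervals as bars. Replicate 2 had more reads at each site, and the intervals were separate at the HOXA10 site, with 15 and 42 reads, and at the HOXB6 site, with 48 and 87. The intervals cover counting error only, and the reads were not adjusted for library depth.

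Replicate 2 listed further HOXA peaks that replicate 1 did not. Within 3587 bp, it held 3 summits between HOXA4 and HOXA5, the closest group of 3 of either list in any cluster. The first had a fold enrichment of 5.93 with 32 reads, the second was the shared summit, and the third, on the HOXA5 side, had 5.54 with 28 reads and GTAAACA centred 6 bp from the summit. HOXA4 and HOXA5 are genes of the anterior and central part of the cluster. A peak with a fold enrichment of 5.92 and 30 reads lay 2 bp from a start site of HOXA-AS2, an antisense RNA gene, in an intron of HOXA3, with GTAAACA 40 bp away. Weaker replicate 2 summits lay 71 bp from a start site of HOXA6, with a fold enrichment of 3.25 and 16 reads, and 304 bp from a start site of HOTAIRM1, a long non-coding gene next to HOXA2 and within its window, with 3.33 and 21 reads. HOXA3 thereby held 5 replicate 2 summits in its body of 46400 bp and 1 replicate 1 summit. A last replicate 2 summit, with 2.86 and 20 reads, lay in the flank before HOXA2, outside every gene window. HOXA7, HOXA11 and HOXA13 had none in either list, and the stretch of 77.0 kb that follows the HOXA10 site, with HOXA11 and HOXA13, held no summit up to the end of the flank.

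In HOXB, HOXB5, HOXB9 and HOXB13 had a summit in replicate 2 alone. The HOXB5 summit, with a fold enrichment of 4.39 and 22 reads, lay in introns of HOXB3 and HOXB-AS3 with GTAAACA 25 bp away. The HOXB9 summit had a fold enrichment of 2.84 with 19 reads and lay nearer to HOXB8, 926 bp from its start site. The posterior gene HOXB13 had a fold enrichment of 3.25 with 16 reads, 258 bp from its start site. HOXB1, HOXB2 and HOXB4 had no summit in either list. Another 5 summits lay in the flank before HOXB1, outside every gene window, 1 of replicate 1 with 2.66 and 4 of replicate 2 from 2.49 to 5.35. The peak with 5.35 had 27 reads, and ATAAACA was centred 15 bp from its summit. A replicate 2 summit between HOXB9 and HOXB13, in LINC02086, also lay outside every window, with 3.25 and 16 reads.

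No shared region was found at HOXC or HOXD. HOXC (chr12:54332615-54449814) had 0 replicate 1 peaks and 4 replicate 2 peaks with its flanks. The strongest of them had a fold enrichment of 4.01 with 20 reads and lay beyond the 3′ end of HOXC11, a posterior gene, 2987 bp from a start site of HOTAIR, a long non-coding gene that overlaps HOXC11 on the opposite strand. The summit at HOXC4, with 3.25 and 16 reads, lay 239 bp from its start site, within a HOXC6 exon, and also in the HOXC8 window. GTAAACA was centred 4 bp from it. The other 2, both with a fold enrichment of 2.68 and 13 reads, lay within the HOXC4 body and in the flank behind it, and their −log10 q of 0.875 put both above a q of 0.05. HOXC5, HOXC9, HOXC10, HOXC12 and HOXC13 had no summit. HOXD (chr2:176957449-177055635) had 1 replicate 1 peak, in the flank, with a fold enrichment of 3.10 and 15 reads, and 2 replicate 2 peaks. The stronger of these, 3.82 with 19 reads, lay between HOXD13 and HOXD12, posterior genes used in the limbs, 2333 bp from a HOXD12 start site. The weaker, 2.49 with 12 reads and a −log10 q of 0.453, lay 125 bp from a start site of HOXD9 and also in the HOXD10 window. HOXD1, HOXD3, HOXD4, HOXD8 and HOXD11 had no summit, and HOXD held the longest stretch without one, 118.3 kb from the HOXD9 site to the end of the flank. The lowest −log10 p was 2.0 in the replicate 1 list and 2.02 in that of replicate 2, so weaker pileups at these genes may not have been listed. Among solved peaks, the lowest number of reads was 10 in either list.

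Widening the flanks to 100 kb added 3 shared regions, all beside HOXC and none beside the other clusters. They lay 93.6 and 71.2 kb before HOXC13 and 75.9 kb beyond HOXC4. Their fold enrichments were 7.75 and 10.5, 3.01 and 8.86, and 3.57 and 10.5 in replicates 1 and 2 (means 9.11, 5.93 and 7.02). The first and second lay in an intron of ENSG00000286069 and the third in introns of LINC02381 and SMUG1.

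**Figure D3:**
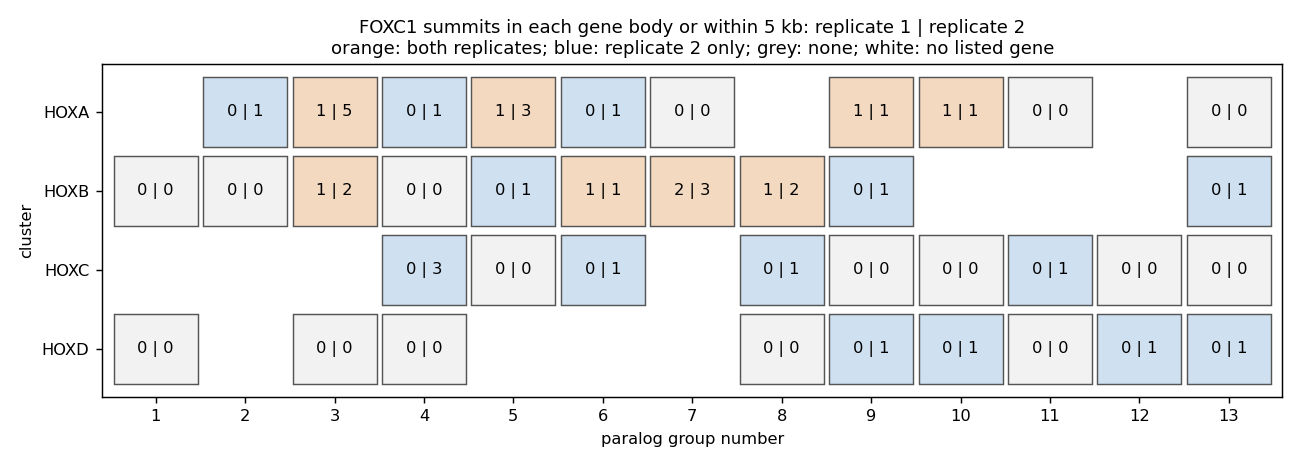
Number of summits in the gene body or within 5 kb for each listed gene, by cluster (y axis) and paralog group (x axis), as replicate 1 and replicate 2 on either side of the bar. Orange cells are genes with summits in both replicates, all in HOXA and HOXB and from 2 shared regions in each. Blue cells have replicate 2 summits alone, grey cells have none, and a summit in several windows is counted in each.

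The share of HOX genes with a summit was next set beside that of other genes. In replicate 1, 8 of 38 (21.1%) had a summit, compared with 34.5% of all protein-coding genes and 12.9% of those with a body of 10 kb or less. In replicate 2, 22 of 38 (57.9%) had one, compared with 51.6% and 24.5%. The replicate 2 share also stayed near that of all genes with stronger peaks only. At a −log10 q of at least 5, 10 of 38 (26.3%) had a replicate 2 summit against 30.7% of all genes. At a fold enrichment of at least 5, 8 of 38 (21.1%) had one against 23.2%. Gaps of this size are small for 38 genes that share summits, and no direction is read from them. For shared summits, the count was 8 of 38 (21.1%), against 24.5% of all genes and 7.44% of the short ones. A longer gene offers more bases in which a summit can fall, and HOX genes are short. Their median body was 4218.5 bp, and 30 of 38 had a body of 10 kb or less. Among these 30, 4 (13.3%) had a replicate 1 summit, 15 (50%) a replicate 2 summit and 4 (13.3%) a shared one. In replicate 1 that share was close to the 12.9% of short genes, whereas in replicate 2 it was above their 24.5%. The shared share of the 30 was 13.3% against 7.44% of short genes, but it rested on 4 genes, and on 1 with either filter below. The 8 longer genes had a summit in 4, 7 and 4 cases. At a −log10 q of at least 5, replicate 2 kept 6 of the 30 short HOX genes (20%), against 10.2% of short genes. Replicate 1 and the shared list kept 1 each (3.33%), against 3.58 and 3.54%. At a fold enrichment of at least 5, replicate 2 kept 4 (13.3%), against 7.04%. Replicate 1 and the shared list again kept 1 each (3.33%), against 2.09 and 2.07%.

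By cluster, 4 of 10 HOXA genes and 4 of 10 HOXB genes had a shared summit, compared with 0 of 9 in HOXC and 0 of 9 in HOXD. The background was 24.5% of all protein-coding genes and 7.44% of short ones. These genes came from only 2 shared regions in HOXA and 2 in HOXB. With flanks, this was 10.0 per Mb in HOXA, 6.66 in HOXB and 0 in HOXC and HOXD, against 4.28 over the chromosomes. With so few regions, a difference between the clusters was not tested. In the replicate 2 list, the counts were 7, 7, 4 and 4. By position along the axis, 2 of 7 genes in paralog groups 1 to 3, 4 of 15 in groups 4 to 8 and 2 of 16 in groups 9 to 13 had a shared summit, and 3, 10 and 9 had a summit in the replicate 2 list. These groups were formed after the data had been seen, and neighbouring genes share their summits. Of the 38 genes, 14 (36.8%) had a replicate 2 summit and none of replicate 1, compared with 21.4% of all protein-coding genes and 15.4% of those with a body of 10 kb or less. Another 16 (42.1%) had none in either list, compared with 44.2% and 71.7%.

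Start sites gave lower counts. A summit within 2 kb of the gene's own start site, a measure chosen after the data had been seen, was found in replicate 1 for 4 genes, HOXA10, HOXB3, HOXB6 and HOXB7 (10.5%), compared with 12.4% of all protein-coding genes. In replicate 2, 11 genes (28.9%) had one, compared with 25.4%, namely the same 4 and HOXA3, HOXA6, HOXB8, HOXB13, HOXC4, HOXC6 and HOXD9. For shared summits, the count was 4 (10.5%), compared with 8.64%. In each list HOXB3 and HOXB6 were counted from the same summit, as were HOXC4 and HOXC6 in replicate 2, so the sites were fewer than the genes. At start sites, therefore, the HOX genes lay near the background in all 3 lists.

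**Figure D4:**
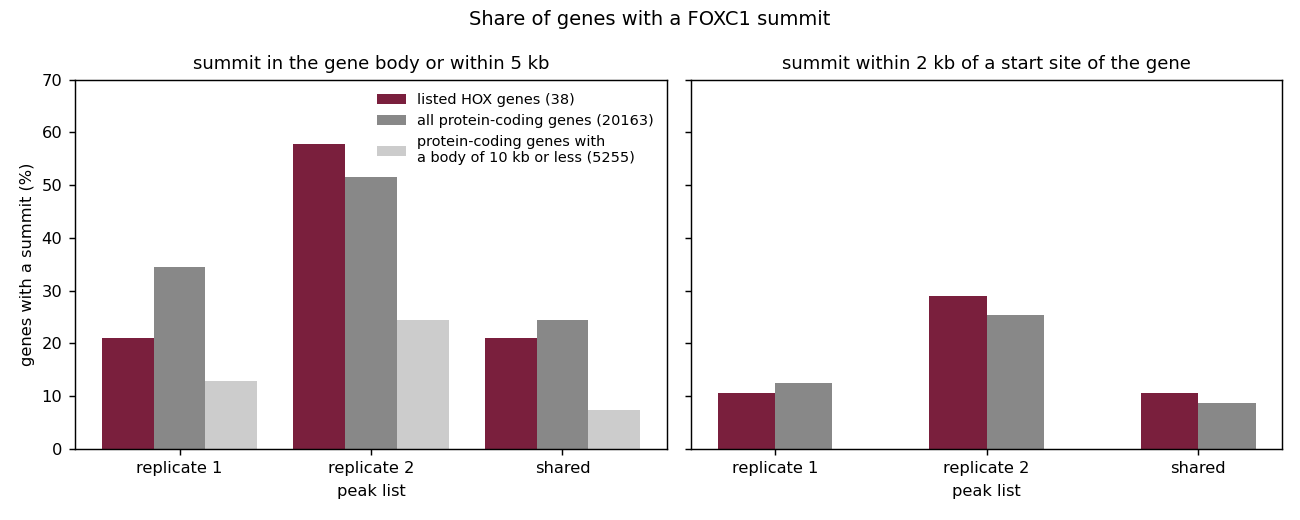
Share of genes with a FOXC1 summit in percent (y axis) for the replicate 1, replicate 2 and shared lists (x axis), for the 38 HOX genes, all protein-coding genes and, on the left, those with a body of 10 kb or less. With the 5 kb window the HOX genes stood below all genes in replicate 1 (21.1 against 34.5%) and near them in replicate 2 (57.9 against 51.6%). In replicate 2 they also stood near them with a −log10 q of at least 5 (26.3 against 30.7%) or a fold enrichment of at least 5 (21.1 against 23.2%). Within 2 kb of their own start sites they stood near all genes in each list.

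Each summit was then counted once. The windows of the 38 genes covered 464 kb and held 4 summits of replicate 1, 18 of replicate 2 and 4 shared, or 8.61, 38.8 and 8.61 per Mb. The windows of short protein-coding genes held 10.1, 22 and 5.73 per Mb, and those of all protein-coding genes 8.99, 17.6 and 5.39. Over the clusters with their 50 kb flanks, replicate 1 had 6 summits and replicate 2 had 24, a ratio of 4, compared with 1.87 over the whole lists. The 6 and 24 summits corresponded to 6.55 and 26.2 per Mb, against 7.24 and 13.5 over the chromosomes, and the 4 shared regions to 4.37 against 4.28 per Mb. Over the clusters with flanks, shared regions were about as dense as over the chromosomes, and the higher density was that of replicate 2.

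The 30 peaks, which merge into 26 sites, were of middling strength in their own lists. The fold enrichment had a median of 3.18 in replicate 1, within a range of 2.66 to 9.49, and of 3.52 in replicate 2, within a range of 2.49 to 9.96. The medians of the whole lists were 3.02 and 3.63. By rank, 1 of 6 and 4 of 24 peaks stood in the strongest 25% of their list, and 3 of 6 and 11 of 24 in the strongest 50%. The 20 sites found in replicate 2 alone had fold enrichments of 2.49 to 5.93 and 12 to 32 reads, with a median of 19, while the whole replicate 2 list had a median of 22. At q, 0 of 6 and 4 of 24 peaks were above 0.05, compared with 31.3% and 14.3% of the whole lists.

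**Figure D5:**
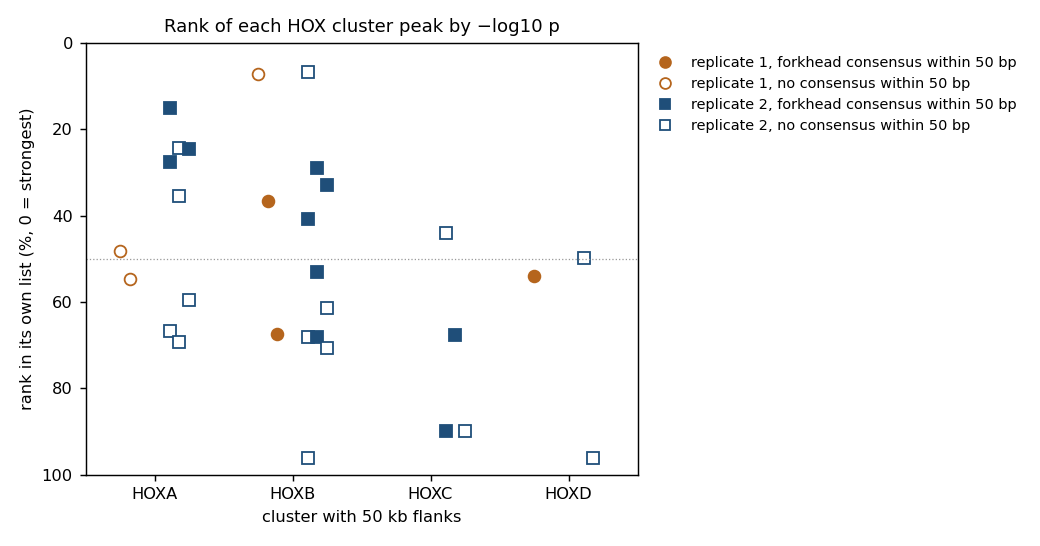
Rank by −log10 p of each of the 30 peaks in the HOX clusters and flanks, in percent of its own list with the strongest at the top (y axis), by cluster (x axis). Circles are replicate 1, squares replicate 2, and filled symbols have a forkhead match within 50 bp of the summit. The HOXB6 peaks are the strongest of the 30 in each replicate, at 7.2% and 6.8% of their lists, and are open symbols.

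The position and base composition of the cluster peaks were compared with those of the whole lists. In replicate 1, 3 of 6 lay no further than 2 kb from a start site (50%), compared with 18.5% of all its peaks. In replicate 2, 12 of 24 did (50%), compared with 21.5%. The clusters are dense in genes, and how far this sets the share was not tested. The median GC content around the summits was 48.5% and 44.6%, compared with 40.6% in both whole lists. In replicate 2, 4 summits lay in exons, 12 in introns and 8 between genes.

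A forkhead match was found within 50 bp of 13 of the 30 summits (43.3%, exact binomial interval 25.5 to 62.6%), 3 of 6 in replicate 1 and 10 of 24 in replicate 2. The interval treats the 30 summits as independent, but a shared region adds a summit of each replicate, so it served no test. The same search gave 32.2% of all replicate 1 peaks and 38.2% of all replicate 2 peaks. For shared regions it gave 48.7%, searched around the midpoint of the summits of both replicates. By site, 2 of the 4 shared regions had a match at 1 or both summits, at HOXA10 at that of replicate 2 alone. This measure is wider than the midpoint search that gave 48.7%. Of the sites of replicate 1 alone, 2 of 2 had a match, and of those of replicate 2 alone, 8 of 20. At the HOXB6 site, the strongest of all, none was found within 500 bp of either summit. GTAAACA alone was found at 7 of 30 summits (23.3%), compared with 12.9% and 15.9% of the lists and 20.8% of shared regions. The other sequences searched on both strands were rare. The AP-1 sequences TGACTCA and TGAGTCA, which are reverse complements of each other, were found at 2 of 30 summits (10.2% and 11.6% of the lists). The composite PBX-HOX sequence TGATTNAT was found at 1 of 30 (3.98% and 4.09%), in the flank behind HOXC4. The homeobox core TAATTA was found at 1 of 30 (2.80% and 2.74%), in the flank before HOXB1. A match describes the letters in the window, not binding.

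Besides the HOX genes, the clusters hold antisense, long non-coding and microRNA genes. The bodies of 3 of 27 long non-coding genes within the clusters held a replicate 1 summit, 7 a replicate 2 summit and 3 a shared one. Over all 18702 long non-coding genes, the shares were 14, 20.7 and 9.19%. HOXA-AS3 had 1 replicate 1 and 4 replicate 2 summits, all also in HOXA3, and HOXB-AS3 had 1 and 2. HOXA-AS2, HOXD-AS2 and LINC02086 had 1 replicate 2 summit each. HOTAIR, HOTTIP, HOXA10-AS, HOXA11-AS, HOXB-AS1, HOXB-AS2, HOXB-AS4, HOXC13-AS, HOXC-AS1, HOXC-AS2, HOXC-AS3, HAGLR and HAGLROS had none. None of the 7 microRNA genes held a summit, and the nearest, at MIR196B, was the HOXA10 site, 3484 and 3347 bp from its start.

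Genes that act on the HOX clusters were counted with the same window. Of 22 genes of Polycomb, Trithorax-type and related chromatin regulators, 9 (40.9%) had a replicate 1 summit, 13 (59.1%) a replicate 2 summit and 7 (31.8%) a shared one. Of 16 upstream regulators, among them the CDX factors, retinoic acid receptors and CYP26 enzymes, 5 (31.2%), 7 (43.8%) and 3 (18.8%) did. The background over all protein-coding genes was 34.5, 51.6 and 24.5%. The median body was 31797 bp for the chromatin regulators and 11443 bp for the upstream regulators, compared with 4218.5 bp for the HOX genes. Gene length was not adjusted for, so these shares are not set against those of the HOX genes.

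The 3 strongest sites of each list by mean fold enrichment are given here, and the strongest at RXRA and RBBP7 exceeded the HOXB6 site in both replicates. RXRA, a partner of the retinoic acid receptors, held 3 shared regions, and the fold enrichment of the strongest, chr9:137326340-137327320, was 24.4 and 73.4 in replicates 1 and 2 (mean 48.9 ± 34.7, SD, n = 2). Its second had 3.66 and 8.20. RARB, a retinoic acid receptor, held 6 shared regions, the strongest by mean with 1.91 and 9.49 (mean 5.7 ± 5.36, SD, n = 2). Its place came from replicate 2, since another RARB region had 4.38 and 6.14 (mean 5.26 ± 1.24, SD, n = 2). Among chromatin regulators, the region at RBBP7, a histone-binding subunit of Polycomb repressive complex 2 (PRC2), had 23.2 and 44.1 (mean 33.7 ± 14.8, SD, n = 2), but lay nearer to a start site of TXLNG, at 1552 bp. The region at EZH1, a histone methyltransferase of PRC2, had 9.04 and 17.3 (mean 13.2 ± 5.86, SD, n = 2) and lay 5 bp from its start site. That at CBX7, a Polycomb protein that binds methylated histone H3, had 6.39 and 13.1 (mean 9.77 ± 4.77, SD, n = 2).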

How the data were processed

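The FOXC1 ChIP-seq libraries were 2 biological replicates from J82 cells, sequenced as 75 bp single-end reads. According to the study's methods and the submitters' processing notes, the authors aligned to hg19 using BWA and called peaks over input using MACS2 2.2.7.1, per replicate. How the lists were filtered is not given in the sources used here. The score deposited by the authors, a whole number, repeats 10 times the −log10 p and was not used further. The fold enrichment deposited by the authors is a ratio: the summit pileup plus 1 over the local background plus 1. For the same summit, the authors deposited the −log10 p and −log10 q.

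Peaks on chromosomes 1 to 22, X and Y were kept (22405 of 22447 entries and 41789 of 41832), and peaks of the replicates that overlapped by at least 1 bp were merged into 13238 shared regions. Whole reads over each summit were solved from the fold enrichment and the −log10 p (residual of the latter under 0.0001), with a pileup scaling of 0.9041 in replicate 2 and none in replicate 1. This succeeded for 99.8% and 99.4% of peaks, leaving 50 and 261 unsolved. The local background is given on the scale of these reads. The median was 18 reads over a summit in replicate 1 and 22 in replicate 2, so that counting error is large at single weak peaks. Library totals were not used.

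Gene bodies and start sites came from GENCODE version 44 on GRCh37, while the study used another version, and sequences came from GRCh37. Read solving and window counting were tested on simulated data. Python 3.11.15, pandas 2.3.3, scipy 1.17.1 and pysam 0.24.0 were used. Groups came from the sample titles. All 38 genes were accounted for by counts. Genes with a shared region, or with the strongest peak of their cluster, were described with values, as were non-coding genes of the clusters and the 3 strongest shared regions of each list of chromatin and upstream regulators, while other HOX genes were added after their values had been seen. The genes were picked by name, with no measured value in the rule, but the choice of this family and of the lists was made with earlier results of these data known. Alternatives changed the window, the peak filter, the overlap rule, the flank and the consensus. The input libraries, the reads, H3K27ac peaks, RNA-seq data and IDR peak calls were not analysed here. Some genes and sequences are not reported here.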

Additional observations from a re-analysis of the deposited data

How the results depend on the processing

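Of 35 recomputed values, 18 stayed within their limits and 17 moved. With summits counted in the gene body alone, 4 HOX genes had a replicate 1 summit, 8 a replicate 2 summit and 4 a shared one. With a −log10 q of at least 5 the counts were 3, 10 and 3, or 7.89, 26.3 and 7.89%, compared with 15, 30.7 and 14.8% of all protein-coding genes, and with a fold enrichment of at least 5 they were 3, 8 and 3, or 7.89, 21.1 and 7.89%, compared with 9.96, 23.2 and 9.82%. Each of these filters left 1 of the 4 shared regions, that at HOXB6. With summits required within 100 bp of each other, 2 shared regions and 4 genes were left, all in HOXB. A flank of 100 kb gave 7 shared regions. GTAAACA alone was found at 23.3% of summits in place of 43.3%. In place of shared summits, replicate 1 alone (without replicate 2) gave 8 genes and 6 peaks and replicate 2 alone (without replicate 1) gave 22 genes and 24 peaks, and the forkhead share was 50 and 41.7%. Windows of 2 and 10 kb, whole peaks in place of summits and a stricter overlap did not move the counts of genes by more than 1.5 times.

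The lists hold peaks above an unstated limit and no read totals, and pileup below 10 reads was not listed. No paired analysis was possible because each replicate gave 1 peak list, no second condition was listed and no result came from a test.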
